A study of Homo sapiens with 6 samples.

Results

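The 10 genes described here encode a small family of kinases and the machinery that family acts on. They are AAK1, the AP2-associated kinase, its relatives GAK, BMP2K and STK16, the AP-2 adaptor subunits AP2A1, AP2A2, AP2B1, AP2M1 and AP2S1, and CLTC, the clathrin heavy chain. AAK1 was chosen by its low count after IRE1 in the contrast described below, so its values are given as a description and carry no test. The other 9 genes were listed for their relation to AAK1 and not for their values. All 10 passed the filter on low counts and are part of 14398 tested genes, out of 57905 genes in the count files.

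The study looked for mRNA targets of IRE1 in myeloma cells and for the role of these targets. The libraries come from the step in which RNA was incubated with or without IRE1 in a test tube. The RNA came from H929, an established line of human multiple myeloma, a tumour of plasma cells. The IRE1-treated group (3 libraries) was 5 μg of this RNA per reaction, held at 37 °C for 1 h together with 2 μg of a recombinant human IRE1 fragment that spans amino acids 467 to 977. The control group (3 libraries) went through the same incubation without the enzyme, and in both groups 5 min of heat at 95 °C stopped the reaction before poly(A) RNA was selected for sequencing. Because the RNA was treated outside the cell, the libraries carry no response of living cells to the enzyme. The counts on genes were 25678499, 22433916 and 21144515 in control replicates 1, 2 and 3, and 19615715, 21525644 and 23041598 in IRE1-treated replicates 1, 2 and 3. IRE1-treated replicate 1 stood apart from its group. The mean chi-square per gene between raw libraries was 7.03 and 10.95 against replicates 2 and 3, beside 3.39 between those and 2.21 to 3.07 among the controls.

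AAK1 and its relatives, known as the Numb-associated kinases, are serine/threonine kinases. AAK1 and GAK phosphorylate the mu subunit of AP-2, which strengthens the grip of the adaptor on cargo receptors at the plasma membrane, and AP-2 in turn recruits clathrin to build the coated pit. IRE1 is the stress sensor of the endoplasmic reticulum whose RNase cuts short hairpin loops around a CUGCAG-like core, and a cut mRNA loses the part 5′ of the cut when poly(A) RNA is selected, so that a count over the whole gene drops only in part.

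The cell type on the label was checked against marker genes. All 9 plasma cell markers on the list had counts in every library, and their sum was 11530 to 11790 CPM (counts scaled to the library total) in the controls and 11130 to 11410 in the IRE1-treated libraries. JCHAIN, the joining chain of secreted immunoglobulins, was the most abundant of them at 3799 to 4120 CPM. Of 11 markers of other cell types found in the files, the sum was 101 to 105 CPM in the controls and 108 to 117 in the IRE1-treated libraries. KRT18, a keratin, was the most abundant of these at 50.9 to 62.7 CPM. The defining markers MS4A1 (B cells), CD3D (T cells) and CD14 (monocytes) had no count in any control library and at most 1, 1 and 3 counts in an IRE1-treated library. CD3E, a T-cell gene, was an exception, with 890 to 1063 counts in the controls and 897 to 998 in the IRE1-treated libraries. Within a library, few cells of a type and little RNA per cell cannot be told apart from a low marker level. The enzyme was added after the RNA was extracted, so the groups differ in how RNA was treated, not in how cells were treated. The summed level of the markers of other cell types was higher in all 3 IRE1-treated libraries than in the controls. Single markers went in different directions. KRT18 was called higher (log2 fold change 0.25; edgeR, adjusted p = 0.00787), while PAX5 of B cells was at -0.61 without passing the threshold (edgeR, adjusted p = 0.151). Of the plasma cell markers, MZB1 (0.31; edgeR, adjusted p = 0.00401) and TNFRSF17 (0.25; edgeR, adjusted p = 0.00134) were higher and PRDM1 (-0.25; edgeR, adjusted p = 0.00193) was lower. The part of these markers in the results below was not tested.

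AAK1 (ENSG00000115977; GRCh37 chromosome 2, 69685129 to 69901481, minus strand) shares no exons with another annotated gene. Its longest annotated mRNA has 21157 bases in 22 exons, of which 399 are 5′ UTR, 2886 coding sequence and 17872 3′ UTR, and 99.9% of the mRNAs of 12225 tested protein-coding genes are shorter. The motif searched in these mRNAs has 6 bases, which are C, then A, C or T, then GC, then A or C, then A or G, on the mRNA strand only. Folding took in 15 flanking bases at each end, and a site was counted if the first G of the motif fell unpaired into a predicted loop. The loop had to measure 5 to 11 bases and sit on a stem of 3 or more stacked pairs. AAK1 has 101 motif sites and 10 counted ones, of which 9 fall in the 3′ UTR and 1 is coding. Of 52 tested mRNAs of like length (a ratio of at least 0.8 either way), 100% hold a counted site, with a median of 9.5 and a range of 3 to 27, so the number in AAK1 is near that of other mRNAs of its size.

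The counted sites shown here are the AAK1 site in the coding sequence, its 4 sites with a loop of 7 bases, and 1 of its 2 counted sites with the motif CTGCAG. For comparison, sites of XBP1, the mRNA that IRE1 is known to splice, and of BLOC1S1, a known substrate, are given below them. Capitals mark the 6 motif bases, and all are written 5′ to 3′ as DNA letters of the mRNA strand, taken from the GRCh37 genome.
AAK1 coding sequence, chr2:69870026-69870055 minus, exon 2, loop of 8: ggcatcgggcgaCAGCAGgtcacagtggac
AAK1 3′ UTR, chr2:69701293-69701322 minus, exon 22, loop of 7: aaaaaagtttaaCAGCAAcaacagcctata
AAK1 3′ UTR, chr2:69696498-69696527 minus, exon 22, loop of 7: aaagacttttatCTGCCAacaagatttaat
AAK1 3′ UTR, chr2:69696417-69696446 minus, exon 22, loop of 7: ttgtttctggtgCTGCCAccaccagaattc
AAK1 3′ UTR, chr2:69693267-69693296 minus, exon 22, loop of 7: ccttcacacagcCAGCCActgatgggctca
AAK1 3′ UTR, chr2:69693440-69693469 minus, exon 22, loop of 5: agacatgctggaCTGCAGtgggtctcggcc
XBP1 coding sequence, chr22:29192126-29192155 minus, exon 4, loop of 6: ggtctgctgagtCCGCAGcactcagactac
XBP1 coding sequence, chr22:29192100-29192129 minus, exon 4, loop of 7: ctacgtgcacctCTGCAGcaggtgcaggcc
BLOC1S1 coding sequence, chr12:56110729-56110758 plus, exon 2, loop of 8: gagaggctatcaCTGCAGcgacctgcctga
A counted site is a description of the sequence, not a shown cleavage site or a cause. Over the 12225 mRNAs, 14.975% of 251783 motif sites were counted and 85.4% of mRNAs had at least 1. Per kilobase, AAK1 has 0.473 counted sites, below the median of 0.648. Of the mRNAs of like length, 78.9% have a counted CTGCAG and 86.5% a counted site with a loop of 7.

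**Figure D1:**
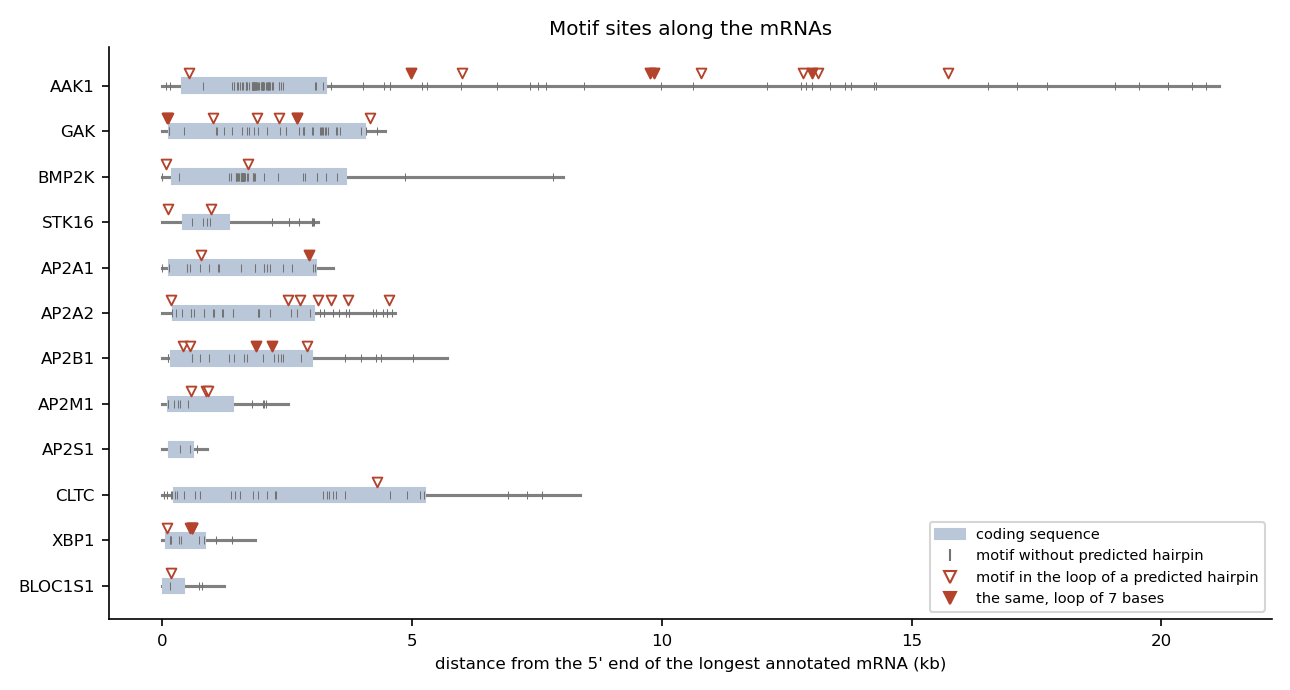
Motif sites along the longest annotated mRNA of each of the 10 genes and of XBP1 and BLOC1S1, by distance from the 5′ end in kilobases, with the coding sequence as a block, motifs without a predicted hairpin as ticks and counted sites as triangles, filled for a loop of 7 bases. Of the 10 counted sites of AAK1, 9 lie in its long 3′ UTR, and AP2S1 has none.

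AAK1 had 208, 165 and 162 counts in control replicates 1, 2 and 3, and 62, 62 and 80 in IRE1-treated replicates 1, 2 and 3. On the scale of normalized counts (library size times TMM factor, at the mean library), these were 176, 159 and 167 in the controls and 74.4, 65.5 and 77.7 after IRE1. All 3 IRE1-treated libraries lay below all 3 controls. The mean went from 167 ± 8.39 (SD, n = 3) to 72.5 ± 6.30 (SD, n = 3), which is 43.4% of the control mean. Single IRE1-treated libraries were at 44.5, 39.2 and 46.5% of that mean. As a log2 fold change this came to -1.20.

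**Figure D2:**
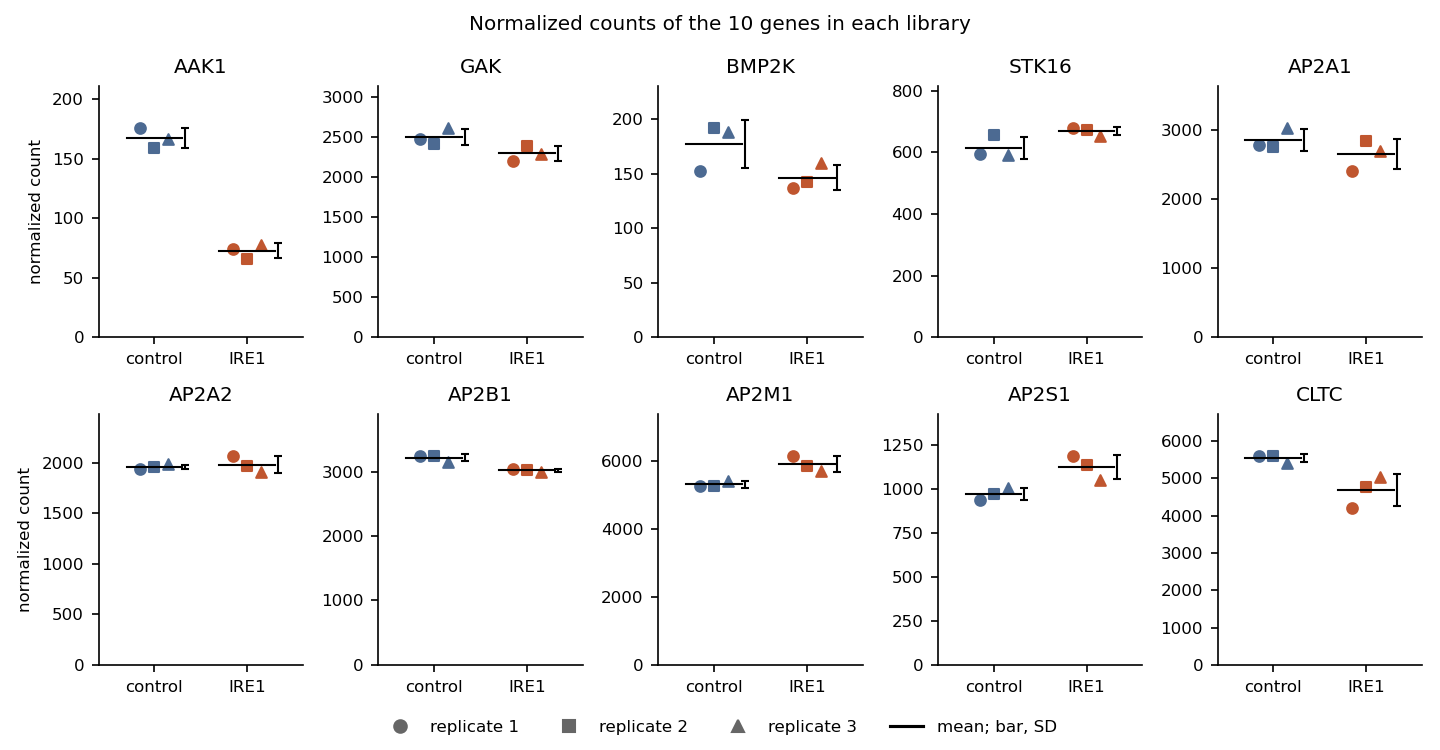
Normalized counts (vertical axes, from 0) of the 10 genes in the 3 control and 3 IRE1-treated libraries, with a symbol for each replicate number, a line at the mean and a bar of 1 SD. AAK1, chosen by its low value, went from 167 to 72.5 on average, and no other gene of the group moved by a comparable share.

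Among the 10302 tested genes that averaged 100 normalized counts or more, ordered by log2 fold change, AAK1 was at place 2 from the lowest. Just below it was BLOC1S1 at -1.37, and just above it were NFAT5 (-1.06), SMCR8 (-1.04), UTRN (-1.01), TRIM56 (-0.995) and PDK2 (-0.96). These genes stand next to AAK1 by rank alone and are given without a test. Their control means ran from 168 for NFAT5 to 1241 for PDK2, and their longest mRNAs from 1229 bases for BLOC1S1 to 13289 for NFAT5, all shorter than that of AAK1. Over all 14398 tested genes AAK1 was at place 21, and 19 of the genes below it had a mean under 100. The genes most like AAK1 over the 6 libraries, by Euclidean distance of log2 values from the control mean, were BLOC1S1 (0.451), SMCR8 (0.456), PDK2 (0.469), TRIM56 (0.50) and UTRN (0.527). All of them are also among the neighbours in rank. The distance rests mostly on the drop after IRE1 by which AAK1 was chosen, so this likeness largely restates that choice.

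With the trend along mRNA length and GC content taken out of every library, the log2 fold change of AAK1 was -0.89 and its place was 4. With the authors' CPM in place of the counts it was -0.96 and its place was 3, on the scale of log2(value + 1), which understates the change of low genes. Leaving out each library in turn gave -1.26 to -1.14, and without IRE1-treated replicate 3 its place was 3.

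GAK (ENSG00000178950, minus strand of chromosome 4, 843064 to 926161) encodes the kinase with a J domain that also takes part in the uncoating of clathrin vesicles. It had 2474, 2413 and 2615 normalized counts in the controls and 2204, 2392 and 2294 after IRE1. The IRE1-treated libraries lay below the controls, by a small margin between control replicate 2 and IRE1-treated replicate 2. The log2 fold change was -0.12 (standard error 0.0518, 95% interval -0.23 to -0.01) and did not pass the threshold of 0.05 after adjustment over all tested genes (quasi-likelihood test of edgeR, Benjamini-Hochberg adjusted p = 0.104). It passed with library size only in place of TMM, at -0.20 (edgeR, adjusted p = 0.0178), and over all alternatives the adjusted p ran from 0.0178 to 0.462.

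BMP2K (ENSG00000138756, plus strand of chromosome 4, 79697496 to 79837519), a kinase first described in bone cells, is the closest relative of AAK1 and has a similar count. It had 152, 192 and 188 normalized counts in the controls and 137, 143 and 159 after IRE1. The groups overlapped, since control replicate 1 was below IRE1-treated replicate 3. The log2 fold change was -0.27 (standard error 0.124, 95% interval -0.53 to -0.01; edgeR, adjusted p = 0.132). With the length and GC trend removed it was -0.02, and over all alternatives the adjusted p ran from 0.0677 to 0.936 (edgeR and the other fits). In the annotation, 56.8% of its merged exon bases lie within exons of PAQR3 on the opposite strand. The libraries came from a stranded kit, but the strand setting of the counting is not given in the sources used here, so reads of this pair may not be told apart. PAQR3 had 153 to 209 counts in the controls and 57 to 118 after IRE1 (log2 fold change -0.76; edgeR, adjusted p = 0.00387).

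STK16 (ENSG00000115661, plus strand of chromosome 2, 220110177 to 220115059) is a membrane-anchored kinase of the Golgi and the most distant relative in the family. It had 594.5, 655 and 590 normalized counts in the controls and 679, 673 and 653 after IRE1. Control replicate 2 lay between the IRE1-treated libraries, so the groups overlapped. The log2 fold change was 0.12 (standard error 0.0678, 95% interval -0.02 to 0.27; edgeR, adjusted p = 0.209). STK16 shares 14.9% of its merged exon bases with GLB1L and TUBA4A on the opposite strand, and TUBA4A had 6133 to 7318 counts per library and was higher after IRE1 (0.18; edgeR, adjusted p = 0.0317).

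The balance among the kinases can be read within each library. Of the normalized counts per kilobase of longest mRNA summed over the 4 kinases, AAK1 made up 1.08, 0.961 and 0.977% in the controls and 0.480, 0.401 and 0.492% after IRE1. GAK made up 69.1 to 72.7% in the controls and 67.5 to 69.4% after IRE1. The share of AAK1 depends on the length of its mRNA model. Without division by length, AAK1 made up 4.65 to 5.18% of the summed counts in the controls and 2.0 to 2.44% after IRE1. The ratio of AAK1 to BMP2K counts, a pair of similar abundance, was 1.16, 0.829 and 0.885 in the controls and 0.544, 0.459 and 0.488 after IRE1. Because AAK1 was chosen by its value in this contrast, these shares and ratios are a description.

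AP2A1 (ENSG00000196961, plus strand of chromosome 19, 50270258 to 50310371) and AP2A2 (ENSG00000183020, plus strand of chromosome 11, 924881 to 1012245) encode the alternative alpha subunits, which bind membrane phosphoinositides and accessory proteins. AP2A1 had 2788, 2752 and 3035 normalized counts in the controls and 2416, 2841 and 2703 after IRE1. Its groups overlapped, because IRE1-treated replicate 2 lay above control replicates 1 and 2, and the log2 fold change was -0.11 (standard error 0.0609, 95% interval -0.24 to 0.02; edgeR, adjusted p = 0.233). AP2A2 had 1944, 1963 and 1985 normalized counts in the controls and 2073, 1966 and 1907 after IRE1. The IRE1-treated libraries of AP2A2 spread around the controls, with a log2 fold change of 0.01 (standard error 0.0503, 95% interval -0.09 to 0.12; edgeR, adjusted p = 0.891), whose sign turned with library size only (-0.06) and without IRE1-treated replicate 1 (-0.02). AP2A1 shares 2.86% of its merged exon bases with FUZ. Per kilobase of longest mRNA, AP2A1 made up 65.6 to 67.5% of the alpha subunit signal in the controls and 61.3 to 66.3% after IRE1.

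AP2B1 (ENSG00000006125, plus strand of chromosome 17, 33905065 to 34053432) encodes the beta subunit, whose hinge binds clathrin. It had 3247, 3249 and 3154 normalized counts in the controls and 3042, 3019 and 2992 after IRE1. All IRE1-treated libraries were below all controls, and the difference was small, with a log2 fold change of -0.09 (standard error 0.0453, 95% interval -0.19 to 0.004; edgeR, adjusted p = 0.161). With library size only it was -0.17 and passed the threshold (edgeR, adjusted p = 0.0142), and with the length and GC trend removed its sign turned, to 0.05. Over the alternatives the adjusted p ran from 0.0142 to 0.541. AP2B1 has 1 named pseudogene, which had at most 1 count in a library.

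AP2M1 (ENSG00000161203, plus strand of chromosome 3, 183892477 to 183902002) encodes the mu subunit, the substrate of AAK1 and GAK and the subunit that reads the tyrosine-based sorting signal of cargo. It had 5264, 5266 and 5430 normalized counts in the controls and 6165, 5857 and 5698 after IRE1. Every IRE1-treated library was above every control, and the mean rose from 5320 ± 95.2 (SD, n = 3) to 5907 ± 237 (SD, n = 3), a log2 fold change of 0.15 (standard error 0.0470, 95% interval 0.05 to 0.25; edgeR, adjusted p = 0.0307). The call was lost when any of 4 single libraries was left out, with an adjusted p in edgeR of 0.0776 for IRE1-treated replicate 2 and of 0.125, 0.140 and 0.0651 for control replicates 1, 2 and 3. It was lost as well with library size only, at 0.07, with the length and GC trend removed, at 0.08, and with a replicate block, at 0.15 (edgeR, adjusted p = 0.0815). Over all alternatives the adjusted p ran from 0.00795 to 0.293.

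AP2S1 (ENSG00000042753, minus strand of chromosome 19, 47341393 to 47354103) encodes the small sigma subunit, which reads the dileucine sorting signal. It had 935, 971 and 1003 normalized counts in the controls and 1189, 1134 and 1052 after IRE1. The groups did not overlap, and the mean rose from 970 ± 33.7 (SD, n = 3) to 1125 ± 69.0 (SD, n = 3), a log2 fold change of 0.21 (standard error 0.0614, 95% interval 0.08 to 0.34; edgeR, adjusted p = 0.0207). Without control replicate 1 the adjusted p was 0.109, without control replicate 2 it was 0.0788, and without IRE1-treated replicate 2 it was 0.0754 (edgeR). The log2 fold change was 0.14 with library size only and 0.03 with the length and GC trend removed, neither past the threshold, and the adjusted p ran from 0.00248 to 0.837 over all alternatives.

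CLTC (ENSG00000141367, plus strand of chromosome 17, 57697045 to 57774317) encodes the heavy chain that forms the legs of the clathrin triskelion. It had 5603, 5608 and 5416 normalized counts in the controls and 4213, 4771 and 5047 after IRE1. Every IRE1-treated library was below every control, and replicate 1 was farthest down, at 76.0% of the control mean, against 86.1 and 91.1% in replicates 2 and 3. The mean fell from 5542 ± 109 (SD, n = 3) to 4677 ± 425 (SD, n = 3), a log2 fold change of -0.24 (standard error 0.0585, 95% interval -0.37 to -0.12; edgeR, adjusted p = 0.00765). Leaving out any 1 of the 6 libraries kept the call, at -0.30 to -0.17. With the length and GC trend removed the value was 0.004 and the call was gone, and over all alternatives the adjusted p ran from 1.89e-05 to 0.985. CLTC shares 2.28% of its merged exon bases with PTRH2 and an unnamed gene, and PTRH2 had 671 to 946 counts per library and was higher after IRE1 (0.36; edgeR, adjusted p = 0.0167).

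**Figure D3:**
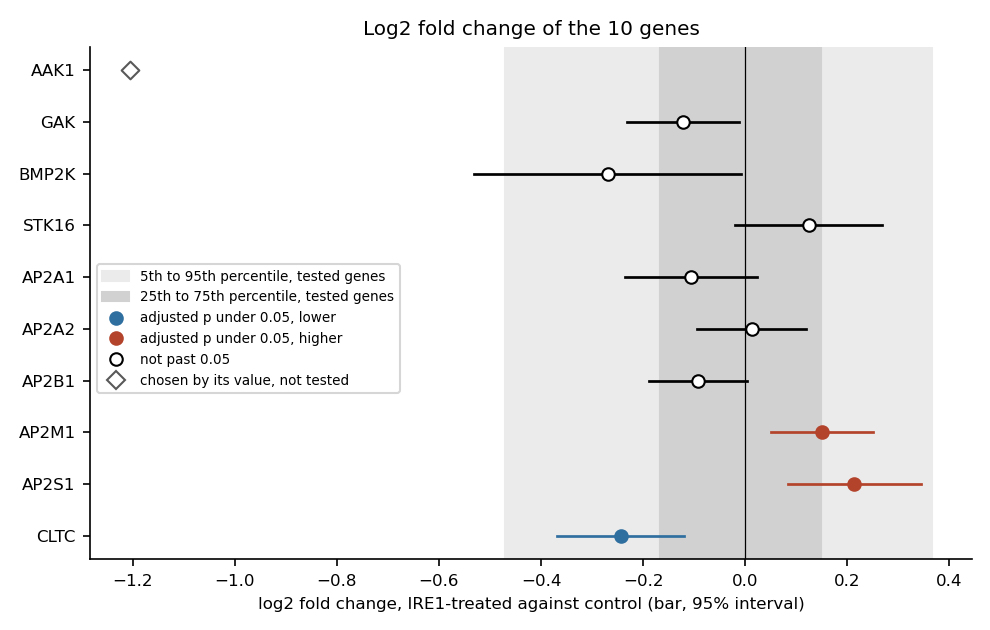
Log2 fold change of each of the 10 genes between IRE1-treated and control libraries (horizontal axis, with a bar for the 95% interval of each gene but AAK1), over bands that hold the 5th to 95th and the 25th to 75th percentile of all tested genes. CLTC was lower and AP2M1 and AP2S1 higher past the threshold with TMM scaling, which library size only (AP2M1, AP2S1) or removal of the length and GC trend (all 3) ended, while AAK1, at -1.20, was chosen by its value.

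Of the 9 genes other than AAK1, 1 was lower (CLTC) and 2 were higher (AP2M1 and AP2S1), beside 12.4% lower, 10.3% higher and 22.7% changed in either direction among all 14398 tested genes. The groups did not overlap in 3 of the 9 genes with lower values (GAK, AP2B1, CLTC) and in 2 with higher values, beside 20.0 and 19.1% of all tested genes. The median log2 fold change of the 9 genes was -0.09, beside 0.00 (0.0045) over all tested genes, whose 5th and 95th percentiles were -0.47 and 0.37. With library size only in place of TMM, 3 of the 9 were lower and none higher (0), and over all genes the share of lower among changed genes moved from 54.5 to 79.2%. IRE1-treated replicate 1 held the lowest CLTC value and the highest AP2M1 and AP2S1 values, and without it 1 of the 9 genes was lower and 2 were higher, as with all libraries. Among the 9, higher genes numbered 0 without control replicate 1, control replicate 2 or IRE1-treated replicate 2, and 1 without control replicate 3. The background moved with single libraries as well. The numbers of lower and higher genes, 1781 and 1489, were 960 and 699 without control replicate 1, 993 and 637 without control replicate 2, 1369 and 957 without control replicate 3, and 1091 and 889 without IRE1-treated replicate 2.

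The length of the mRNA moved with the log2 fold change across the whole table. Among protein-coding genes with a longest mRNA under 1000 bases (493 genes), the median log2 fold change was 0.24 and 51.3% were called higher. It was 0.16 from 1000 to 2000 bases, 0.03 from 2000 to 4000, -0.13 from 4000 to 8000 and -0.26 from 8000 to 16000, where 46.3% were called lower. Spearman's rho between length and log2 fold change was -0.63 across 12225 genes, which are not independent replicates. Among the members other than AAK1, AP2S1, with the shortest mRNA at 898 bases, had the highest value, and BMP2K and CLTC, with 8012 and 8369 bases, had the lowest values, each near the median of its length class. AP2A1 (-0.11) lay below the lower quartile of its class (-0.07), and AP2M1 (0.15) and AP2A2 (0.01) lay above the upper quartiles of theirs (0.13 and -0.004). With the trend removed, none (0) of the 9 genes passed the threshold in edgeR, and their median was 0.03. The removal takes out length and GC content together. Counted motif sites are also more common in longer mRNAs, held by 58.4% of those of like length to AP2S1 and 97.2% of those like CLTC. The removal therefore cannot tell these apart, and the part of length in these results was not tested.

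In the length class of AAK1, 16000 bases and more (77 genes), the median log2 fold change was -0.25 with quartiles of -0.39 and -0.09, and AAK1 was the lowest of them. The next lowest was at -0.79, with an mRNA of 16860 bases. Since AAK1 was chosen by its low value in this contrast, its place in the class restates that choice and says nothing of the part of length in its value.

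**Figure D4:**
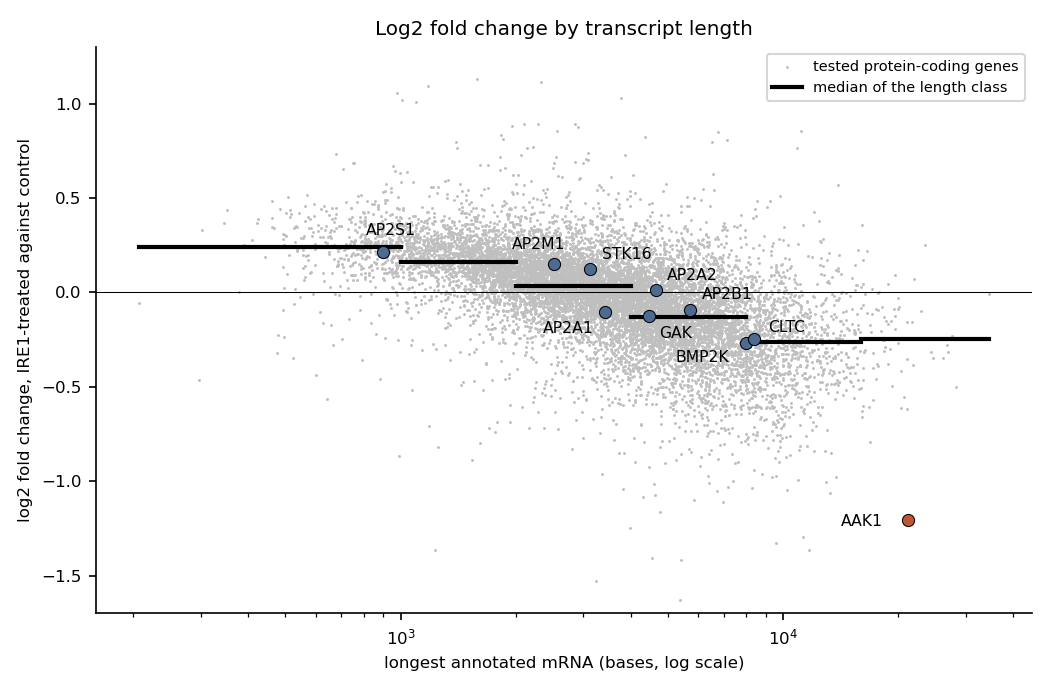
Log2 fold change (vertical axis) against the length of the longest annotated mRNA (horizontal axis, log scale) for tested protein-coding genes, with the 10 genes marked, lines at the median of each length class and 2 genes outside the vertical range left off. AP2S1, at 898 bases, is highest of the 10 genes, and AP2A1 lies below and AP2M1 and AP2A2 above the middle 50% of their length classes, while AAK1, chosen by its low value, is the lowest gene of 16000 bases and more.

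Among the other members, GAK had 8 counted sites, more than 93.6% of mRNAs of like length, and AP2A2 had 7, more than 88.8% of them. AP2B1 had 5, AP2M1 3, and BMP2K, STK16 and AP2A1 had 2 each. CLTC had 1 counted site, fewer than most mRNAs of its length, which hold a median of 5. AP2S1 had 0, which says only that no such site is in this mRNA model. The CLTC site and the only counted AP2A1 site with a loop of 7 bases are shown as examples with the motif CTGCAG, in capitals. Counted CTGCAG sites of GAK, STK16 and AP2A2 are not shown.
CLTC coding sequence, chr17:57760622-57760775 plus, joined across exons 25 and 26, loop of 8: aggtgctaagagCTGCAGaacaagctcatc
AP2A1 coding sequence, chr19:50309451-50309480 plus, exon 23, loop of 7: cagactaaagccCTGCAGgtgggctgtctg
With the motif restricted to CTGCAG, AAK1 and AP2A2 had 2 counted sites each, GAK, STK16, AP2A1 and CLTC 1 each and the other members 0. With a loop of exactly 7 bases, AAK1 had 4, GAK and AP2B1 2 each, AP2A1 1 and the others 0. Over all 12225 mRNAs, 36.9% had a counted CTGCAG and 33.5% a counted site with a loop of 7.

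Levels between genes were compared in the controls as normalized counts per kilobase of longest mRNA. AP2M1 was highest at 2116 ± 37.9 (SD, n = 3), followed by AP2S1 at 1080 ± 37.5, AP2A1 at 835 ± 45, CLTC at 662 ± 13.1, AP2B1 at 564 ± 9.50, GAK at 561 ± 23.2, AP2A2 at 422 ± 4.36, STK16 at 197 ± 11.6, BMP2K at 22.2 ± 2.74 and AAK1 at 7.91 ± 0.396. Neighbours in this order did not overlap in the 3 control libraries, except AP2B1 and GAK. AAK1 was the lowest member on this scale in the controls, which were incubated without the enzyme, and after IRE1 it was at 3.43 ± 0.298. Gene counts do not show which isoforms H929 expresses, and the place of AAK1 after BMP2K, which has a similar count, rests on the 21157 bases of its mRNA model. The order depended in part on the length used. With merged exons it was AP2M1 at 793, AP2S1 at 622, CLTC at 459, AP2B1 at 424, AP2A1 at 328, GAK at 165, STK16 at 140.4, AP2A2 at 135, BMP2K at 17.9 and AAK1 at 6.73, so that CLTC and AP2B1 came before AP2A1 and STK16 before AP2A2.

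Clathrin has 3 other chain genes. CLTA and CLTB, the light chains, which regulate assembly, went up from 2136 ± 72.8 to 2503 ± 234 and from 1801 ± 61.3 to 2055 ± 186 normalized counts (SD, n = 3). Their log2 fold changes were 0.23 and 0.19 (edgeR, adjusted p = 0.0156 and 0.0384), opposite in sign to the heavy chain. Both calls were lost with library size only, with the length and GC trend removed, and without control replicate 1 or 2, and that of CLTB also without control replicate 3 or IRE1-treated replicate 1 or 2. CLTCL1, the second heavy chain, had 47 to 70 counts per library and did not pass the threshold.

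Genes that assemble AP-2 or switch it on formed the next list, with 9 of 10 tested, 1 lower (11.1%) and 2 higher (22.2%) and a median of 0.04, where all tested genes had 12.4% lower and 10.3% higher. FCHO2, a membrane-curving protein that opens AP-2 at nascent pits, was lower at -0.55 (standard error 0.145; edgeR, adjusted p = 0.0126), a call lost without control replicate 1. Its relative FCHO1 was at 0.02 (edgeR, adjusted p = 0.82). AAGAB and CCDC32, chaperones of AP-2 assembly, were higher at 0.23 and 0.24 (edgeR, adjusted p = 0.0111 and 0.00461), and the call of AAGAB was lost without control replicate 2 and with library size only. With library size only the list had 3 lower and 1 higher, and with the length and GC trend removed 0 were lower and 2 higher.

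Among endocytic adaptors and scaffolds, 21 of 24 were tested, 8 were lower (38.1%) and 1 was higher (4.76%), with a median of -0.07, beside 12.4 and 10.3% of all tested genes. The median longest mRNA of this list has 5172 bases, and of all mRNAs of 4000 to 8000 bases 25.1% were called lower. The lowest were ITSN2, an intersectin scaffold (-0.67, standard error 0.0972; edgeR, adjusted p = 0.000322), CD2AP, which links endocytosis to actin (-0.50; edgeR, adjusted p = 0.00301), and HIP1R, a clathrin and actin linker (-0.26; edgeR, adjusted p = 0.00553). PICALM, the adaptor that sets the size of clathrin coats, was at -0.24, and EPS15, HIP1, NUMB and ITSN1 were lower as well. ARRB2, a beta-arrestin, was higher at 0.16 (edgeR, adjusted p = 0.0440), a call lost when any 1 library other than IRE1-treated replicate 3 was left out. The number called lower was 4 when control replicate 1, control replicate 2 or IRE1-treated replicate 2 was left out, and 3 with the length and GC trend removed.

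In membrane bending, scission and uncoating, all 20 genes were tested, 8 were lower (40%) and 1 was higher (5.0%), with a median of -0.18, against 12.4 and 10.3% over all tested genes and 25.1% lower among mRNAs of 4000 to 8000 bases. The median longest mRNA of the list has 4953.5 bases. SYNJ1, a phosphoinositide phosphatase that helps to strip the coat, was lowest at -0.62 (standard error 0.115; edgeR, adjusted p = 0.00161), followed by SH3GL2, an endophilin (-0.56; edgeR, adjusted p = 0.0171), and PIK3C2A, a lipid kinase of the coated pit (-0.55; edgeR, adjusted p = 0.000337). DNAJC6, the auxilin that shares its uncoating role with GAK, went from 389 ± 17.5 to 314 ± 21.1 normalized counts (SD, n = 3), or -0.31 (edgeR, adjusted p = 0.0179). HSPA8, the chaperone these auxilins recruit, was higher at 0.17 (edgeR, adjusted p = 0.0174), and its reads may be shared with 17 named pseudogenes. The lower genes numbered 4, 5 and 5 without control replicates 1, 2 and 3, and 4 with the length and GC trend removed. The call of HSPA8 was lost with library size only, with the length and GC trend removed, and when any 1 of the 3 controls was left out.

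All 11 cargo receptors had a negative log2 fold change, with a median of -0.23, beside 7079 negative genes among all 14398. Of the list, 6 (54.5%) were lower past the threshold and none (0) higher, beside 12.4 and 10.3% of all tested genes and 46.3% lower among mRNAs of 8000 to 16000 bases. LRP6, a Wnt co-receptor, was lowest at -0.53 (edgeR, adjusted p = 0.00707), followed by NOTCH1 at -0.48 (edgeR, adjusted p = 0.000297) and LRP1 at -0.43 (edgeR, adjusted p = 0.0101). TFRC, the transferrin receptor and a classical cargo of AP-2, went from 1729 ± 133 to 1373 ± 204 normalized counts (SD, n = 3), or -0.33 (edgeR, adjusted p = 0.0116). IGF2R, a receptor for lysosomal enzymes, was at -0.26 (edgeR, adjusted p = 0.00259). The median longest mRNA of this list has 9213 bases, against 3298 over all tested genes. Without control replicate 1 the lower genes numbered 3, and with the length and GC trend removed 1 was lower and 1 higher, with a median of -0.12.

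The related adaptor complexes of other membranes mostly did not pass the threshold, which 12.4% of all tested genes passed with lower and 10.3% with higher values. Of the AP-1 subunits, 7 of 8 were tested and AP1G1 alone was lower (-0.32; edgeR, adjusted p = 0.000901). Of 7 AP-3 subunits, AP3B1 and AP3M1 were lower (-0.19 and -0.17; edgeR, adjusted p = 0.0287 and 0.0322), and neither held without control replicate 1, control replicate 2, IRE1-treated replicate 1 or IRE1-treated replicate 2, nor with the length and GC trend removed. With a replicate block, none (0) of the AP-3 subunits was called lower. The call of AP3M1 was also lost without control replicate 3, and that of AP1G1 with the trend removed. None (0) of the 8 AP-4 and AP-5 subunits passed in edgeR, while 1 did so with library size only.

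Over these lists without the 10 members, 86 of 91 genes were tested, of which 26 were lower (30.2%) and 6 higher (6.98%), beside 12.4 and 10.3% of all tested genes. Their median log2 fold change was -0.07 and their median longest mRNA has 4993 bases. With the length and GC trend removed, 8 were lower and 7 higher, with a median of 0.01, beside 649 and 990 of all tested genes. Without control replicate 1 the numbers were 12 lower and 2 higher, without control replicate 2 they were 15 and 1, with control replicate 3 left out 3 were higher, and 17 were lower once IRE1-treated replicate 2 was left out.

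**Figure D5:**
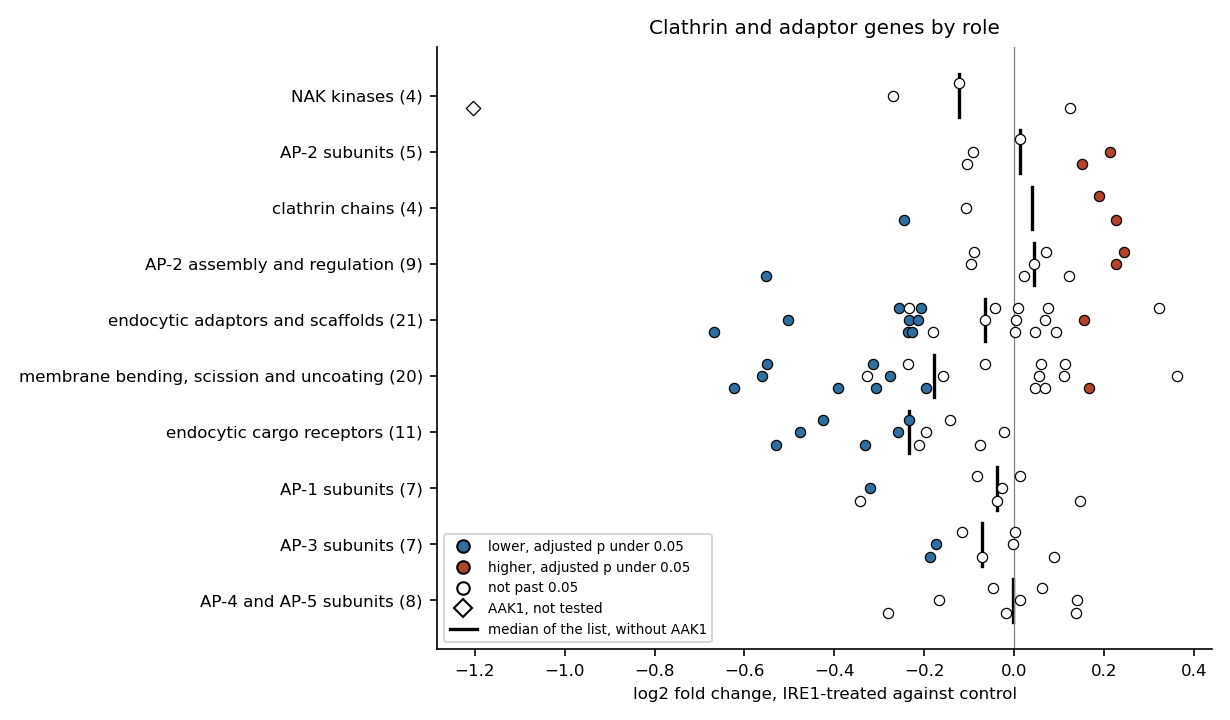
Log2 fold change (horizontal axis) of each tested gene in the lists of clathrin and adaptor genes, by role, with the number of tested genes in brackets, filled points past an adjusted p of 0.05 and a line at the median of each list. The cargo receptors lie to the left of 0 throughout and the AP-2 subunits on both sides. AAK1, not tested, is apart from all others, which restates its choice by its low value.

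Substrates known from earlier work give a scale for these values, as counts over the whole gene. The paper counted exons instead, and reported fewer XBP1 reads 5′ of the cut sites and similar reads downstream. A small value here therefore does not show that an mRNA was left uncut. PRDM1 and NOTCH1, named above, are among the substrates that the paper itself reported from this reaction. BLOC1S1 went from 614 ± 34 to 239 ± 33 normalized counts (SD, n = 3), 39.0% of the control mean, with an mRNA of 1229 bases against the 21157 of AAK1. XBP1 was at -0.09 (edgeR, adjusted p = 0.143), PER1 at -0.13 (edgeR, adjusted p = 0.103) and CD59 at 0.06 (edgeR, adjusted p = 0.443), and SPARC was below the filter. The call of BLOC1S1 held in all 15 alternatives, with an adjusted p of at most 0.00031 (edgeR and the other fits). XBP1, PER1 and CD59 passed the threshold only in some of them. XBP1 was lower with library size only (-0.17), with the length and GC trend removed (-0.21) and without IRE1-treated replicate 1 (-0.11), and its adjusted p ran from 0.000902 to 0.386 over the alternatives. PER1 was lower with library size only (-0.21; adjusted p from 0.0209 to 0.556 over the alternatives). CD59 was higher with the trend removed (0.28) and had the opposite sign with library size only (-0.02), with an adjusted p from 0.00141 to 0.838.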

How the data were processed

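The authors trimmed reads with cutadapt 1.12, aligned them with STAR 2.5.3a to the human genome (hg19, Ensembl release 87) and deposited the raw count of each gene from HTSeq 0.6.1p1 for each library; versions are from the submitters' processing notes. Its strand setting and overlap mode are not given in the sources used here. A deposited CPM table by the authors covers 12558 genes and served only in an alternative. The 5 HTSeq lines that name no gene, 21.4 to 23.2% of each total, were left out. Counts were fitted with edgeR 4.0.16 (R 4.3.3): filter on low counts, TMM, quasi-likelihood test, Benjamini-Hochberg over 14398 genes, threshold 0.05, 3 against 3 libraries. The 95% intervals are not adjusted. The p-values measure the spread between these libraries only. Normalized counts are counts at the scale of the mean effective library. Depth on genes was 19615715 to 25678499 counts.

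Transcripts and their sequences were those of GENCODE release 44, mapped to GRCh37, newer than the authors' annotation of the same build. Hairpins were folded with ViennaRNA 2.7.2. Scripts used Python 3.11.15 and were tested on simulated data.

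The members and lists were chosen with earlier results of these data known. Named were the members, list genes past the threshold or among the 3 lowest or 3 highest of their list, the 5 genes on each side of AAK1 in rank and the 5 most like it (mean of at least 100 normalized counts), and genes that share exons with a member. The lists were the Numb-associated kinases, AP-2 subunits, clathrin chains, AP-1, AP-3, and AP-4 and AP-5 subunits, AP-2 assembly and regulation, endocytic adaptors and scaffolds, membrane bending, scission and uncoating, cargo receptors, plasma cell markers, markers of other cell types and known IRE1 substrates.

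Alternatives were DESeq2 1.42.0, upper quartile scaling, library size only, no filter, at least 10 counts in every library, limma 3.58.1 on log2(CPM + 1), a replicate block, a loess trend (span 0.5) with length and GC content removed, both together, each library left out, the canonical mRNA, the motif CTGCAG alone, a loop of 7 bases, and the length of merged exons.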

Additional observations from a re-analysis of the deposited data

How the results depend on the processing

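Across 15 alternatives the log2 fold change of AAK1 kept its sign, from -1.28 to -0.89. It moved by more than the spread between replicates with limma on the authors' CPM (-0.96), with the length and GC trend removed (-0.89) and with that removal plus a replicate block (-0.89), and was -1.26 to -1.14 with a library left out. With library size only, the genes higher after IRE1 numbered 683, the members other than AAK1 3 lower and 0 higher, the pathway genes 1 higher, and AP2A2 turned sign (-0.0639). With the length and GC trend removed there were 649 lower and 990 higher genes, 0 lower and 0 higher members other than AAK1 and 8 lower pathway genes, and the signs of AP2B1 (0.0544) and CLTC (0.0041) turned. With that removal and a replicate block the values were 536, 847, 0, 0 and 6, and 0.0545 and 0.0025. The replicate block alone left 1 higher member, AP2S1, with 1496 lower and 1117 higher genes. The numbers need not pair the libraries, since libraries of the same number had correlations of -0.04, -0.005 and -0.11. With a library left out, lower genes ran from 960 to 2224, higher genes from 637 to 2086, lower members from 1 to 1, higher members from 0 to 2, lower pathway genes from 12 to 28 and higher ones from 1 to 7, and AP2A2 ran from -0.0184 to 0.0448, turning sign without IRE1-treated replicate 1. The cause was not tested. BMP2K, STK16 and AP2A1 kept sign and side of the threshold in all 15, but their values moved: BMP2K from -0.37 without control replicate 1 to -0.02 with the length and GC trend removed, STK16 from 0.05 with library size only to 0.17 without control replicate 2, and AP2A1 from -0.18 with library size only to -0.04 without IRE1-treated replicate 1. GAK went from -0.20 with library size only to -0.07 with the length and GC trend removed. Counts of AAK1 after IRE1 were 62 to 80, which limits its precision, and gene counts do not show where along the mRNA reads were lost.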
